A study of Mus musculus with 13 samples.

Results

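The genes described here build sterols, fatty acids and glycerides, or sense and carry sterols. The set is a list of 39 named genes, and each was represented by its brightest probeset that carries a single gene symbol. In all, 38 of the 39 were measured, out of 18820 genes with such a probeset. Acat2, an acetyl-CoA thiolase, is not analysed here. The study profiled RNA of the mouse stomach on 13 Affymetrix gene arrays in 5 groups. The chief group (replicates a, b and c) and the parietal group (a and b) were cells of the gastric corpus, positive for the receptor Troy (Tnfrsf19) and sorted by flow cytometry from Troy-EGFP-ires-CreERT2 mice. In these mice an EGFP-ires-CreERT2 cassette sits at the start of the Troy gene, so the reporter follows Troy's own regulatory sequences. Each sorted array pooled glands of 10 mice and about 100000 cells. The gland group (a and b) was whole corpus glands processed directly after isolation, and the labels do not give the genotype of those mice. The EGFNWR group and the ER group (a, b and c in each) were organoids grown from single Troy-positive chief cells. EGFNWR medium held EGF, Gastrin, FGF10, Noggin, Wnt3a and Rspondin, and ER medium held EGF and Rspondin alone. The labels give no age or sex of the mice and no time in either medium, and a protocol text shared by all samples names intestines where the sample labels name gastric corpus.

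Cells make cholesterol from acetyl-CoA through mevalonate, isoprenoid diphosphates, squalene and lanosterol. The genes of this route are classic targets of SREBP transcription factors, encoded by Srebf1 and Srebf2. The SREBP precursors sit in the endoplasmic reticulum, bound to the escort protein Scap and held there by Insig1 or Insig2 when sterols are plentiful. When sterols are scarce, Scap carries them to the Golgi, where proteases release the active factor, and Insig1 is itself one of its targets. Fatty acid synthesis starts from the same acetyl-CoA and feeds elongases, desaturases and the acyltransferases that assemble glycerides. In the stomach, chief cells secrete digestive enzymes, parietal cells secrete acid, and pit and neck cells secrete mucus.

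Promoter sequences are shown for 6 genes, the members higher in ER medium with the largest differences among those that have a single start site in the table of RefSeq promoters (build GRCm38.p6). Each is the 200 bases before the start, read 5′ to 3′ on the gene's strand. Capitals mark matches, on either strand, to 4 motifs: TCACNCCAC (the core of a sterol regulatory element, the site SREBPs bind), CCAAT (the CCAAT box bound by NF-Y), GGGCGG (the GC box bound by Sp1) and CACGTG (an E-box). Positions count back from the start.
Insig1 (chr5:28071212-28071411, plus strand): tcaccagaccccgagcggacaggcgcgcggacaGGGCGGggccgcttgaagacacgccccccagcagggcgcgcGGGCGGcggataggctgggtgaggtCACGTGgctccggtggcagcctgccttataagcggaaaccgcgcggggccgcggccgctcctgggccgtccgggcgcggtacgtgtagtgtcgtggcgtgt
Agpat2 (chr2:26604418-26604617, minus strand): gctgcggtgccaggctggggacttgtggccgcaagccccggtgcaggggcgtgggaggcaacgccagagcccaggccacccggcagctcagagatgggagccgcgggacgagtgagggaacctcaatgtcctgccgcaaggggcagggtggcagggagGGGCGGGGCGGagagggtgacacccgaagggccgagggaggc
Hmgcs1 (chr13:119690151-119690350, plus strand): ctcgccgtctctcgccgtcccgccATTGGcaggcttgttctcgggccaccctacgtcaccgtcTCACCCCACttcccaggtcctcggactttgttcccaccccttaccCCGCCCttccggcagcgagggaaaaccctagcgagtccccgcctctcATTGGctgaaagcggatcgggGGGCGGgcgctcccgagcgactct
Msmo1 (chr8:64733579-64733778, minus strand): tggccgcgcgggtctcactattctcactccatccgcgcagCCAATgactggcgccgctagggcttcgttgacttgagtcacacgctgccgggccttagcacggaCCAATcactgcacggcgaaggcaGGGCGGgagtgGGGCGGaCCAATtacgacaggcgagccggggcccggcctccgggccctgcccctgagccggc
Sc5d (chr9:42264301-42264500, minus strand): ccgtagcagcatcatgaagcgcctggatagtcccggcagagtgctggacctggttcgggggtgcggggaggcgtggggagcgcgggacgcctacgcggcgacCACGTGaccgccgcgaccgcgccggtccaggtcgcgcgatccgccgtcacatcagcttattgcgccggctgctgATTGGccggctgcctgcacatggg
Idi1 (chr13:8885406-8885605, plus strand): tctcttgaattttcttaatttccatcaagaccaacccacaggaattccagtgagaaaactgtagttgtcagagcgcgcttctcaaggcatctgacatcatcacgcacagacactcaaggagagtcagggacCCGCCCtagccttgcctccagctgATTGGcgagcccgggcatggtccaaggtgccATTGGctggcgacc

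The Hmgcs1 promoter held the sterol element core at position -137, between CCAAT boxes at -176 and -45, and GC boxes at -92 and -24. Msmo1 held 3 CCAAT boxes, at -160, -96 and -55, and Idi1 held CCAAT boxes at -45 and -14. Insig1 and Sc5d each held an E-box, at -101 and -98. In Agpat2 the matches were GC boxes at -42 and -37, which overlap each other. In windows from 250 bases before to 50 bases after a start, the core was found in 1 of 40 windows of the listed genes and in 1.24% of all 32851 windows. CCAAT was found in 57.5% of the listed genes' windows, in 73.3% of the 15 windows of the sterol synthesis enzymes and in 37.4% of all windows. GGGCGG was found in 70.0%, 80.0% and 35.7% of the same sets, and CACGTG in 15%, 13.3% and 7.15%. The table held 29 of the 39 genes; Fads1, Fdps, Dgat2, Fdft1, Stard4, Sqle, Scd1, Dgat1, Scd2 and Mogat2 were not matched. The set of all windows covers 27025 symbols and was not matched to the listed genes in level or base content. A match is a description of the letters and no evidence of binding in these cells.

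Levels below are deposited log2 values, so a difference of 1 is a doubling, and differences carry the standard error (SE) of the limma fit. A gene is said to have risen or fallen where the Benjamini-Hochberg adjusted p of limma over all 18820 genes was under 0.05. Array medians lay between 5.01 and 5.30; a level below them is not shown to exceed background. Levels of different genes come from different probesets and are not compared with each other. Of the 38 genes, Mogat1 lay below the array median on 10 of 13 arrays, Elovl5 on 2, and Pmvk and Mogat2 on 1 each.

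The array labels were checked on marker genes. The mean level of 5 chief markers was 11.46 to 12.30 on chief arrays and 10.70 to 10.79 on parietal arrays, and that of 7 parietal markers was 11.36 to 11.46 on parietal arrays and 9.65 to 11.25 on chief arrays, so neither sorted group lacked the other's RNA. Chief replicate c stood nearest to the parietal arrays, with correlations of 0.979 and 0.982 across genes against 0.950 and 0.961 with the other chief arrays, and chief replicate b alone had squamous markers at a mean of 9.23 (4.45 to 6.24 elsewhere). In the organoids the parietal list was at 4.69 to 5.20. In every group 4 or 5 of 5 measured adipocyte markers were below the array median on all arrays. The exception in organoids was Cidec, a lipid droplet protein, at 8.26, 8.18 and 9.12 in ER medium. In these bulk samples, fewer cells of a type and less RNA per cell cannot be told apart.

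**Figure D1:**
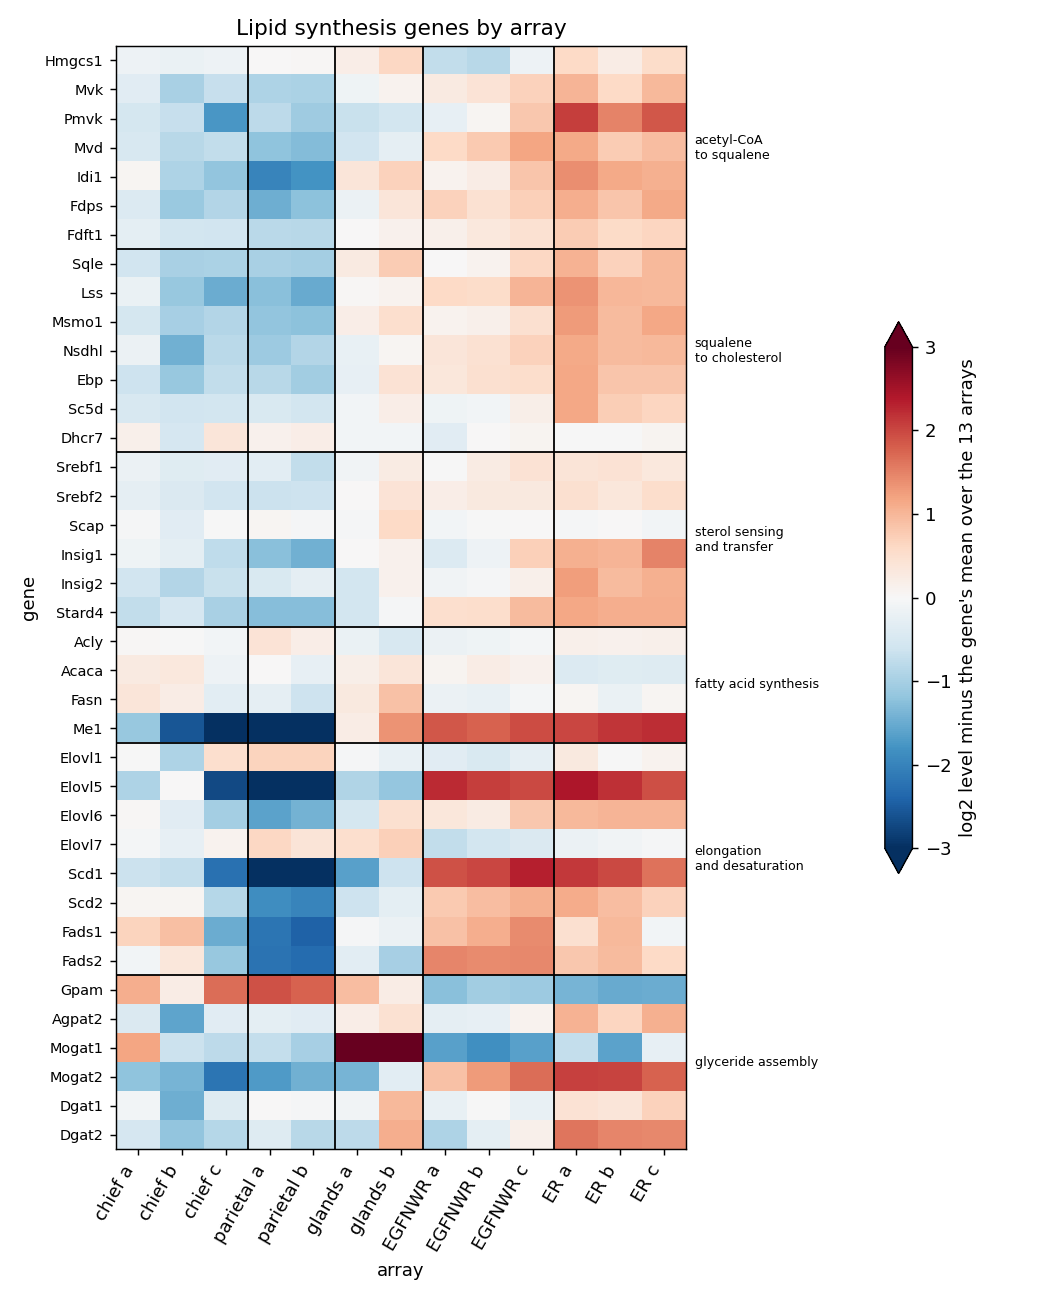
Heat map of the 38 measured genes (rows, grouped by role) on the 13 arrays (columns, grouped by sample type). Colour is the log2 level minus the gene's mean over the 13 arrays, and values beyond 3 in either direction take the end colour. Most sterol enzymes are red on the 3 ER arrays and blue on the parietal arrays, and Mogat1 is darkest on the gland arrays.

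The comparison of the organoids asks what differs when Wnt3a, Noggin, FGF10 and Gastrin are left out. In ER medium 16 of the 38 genes rose and 3 fell against EGFNWR medium, where 9.13% of all genes rose and 10.1% fell. The median difference of the 38 was 0.43, and 0.01 over all genes. The sterol enzymes, the Insig genes and the final acyltransferases of triglyceride synthesis make up most of the increases, while Acaca, Fads2 and Gpam fell. In all 19, the 3 arrays of 1 medium lay wholly above the 3 of the other. Genes called on these same arrays tend to separate in this way. Of the 38, 24 had all ER arrays above all EGFNWR arrays and 3 had them below, against 3355 and 3429 of all genes.

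All 14 measured enzymes of cholesterol synthesis had a positive difference, with a median of 0.50, and 8 of the 14 rose. Of the 7 steps from acetyl-CoA to squalene 3 rose. Hmgcs1, the synthase of HMG-CoA, was at 8.99, 8.90 and 9.58 on the EGFNWR arrays and at 10.33, 9.96 and 10.28 on the ER arrays. Every ER array was above every EGFNWR array, with EGFNWR replicate c nearest, and the difference was 1.03 (SE 0.19, adjusted p = 0.0108). Pmvk, phosphomevalonate kinase, was at 6.21, 6.50 and 7.26 in EGFNWR medium and at 8.52, 7.95 and 8.31 in ER medium. Again EGFNWR replicate c was highest of its group and still below all ER arrays, and the difference of 1.60 (SE 0.27, adjusted p = 0.00806) was the largest among the sterol enzymes. Idi1, the isomerase of isopentenyl diphosphate, rose from 8.96, 9.09 and 9.70 to 10.27, 10.01 and 9.92, a difference of 0.82 (SE 0.20, adjusted p = 0.0281). Its other probeset moved the same way.

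The remaining 4 of these steps did not pass the test. Fdps, which makes farnesyl diphosphate, differed by 0.40 (adjusted p = 0.058), and Fdft1, squalene synthase, by 0.35 (adjusted p = 0.0618). For both, the ER arrays lay above the EGFNWR arrays, and Fdps was called where the replicate letter was a block (adjusted p = 0.0206). Mvk, mevalonate kinase, differed by 0.41 (adjusted p = 0.113) and Mvd, mevalonate diphosphate decarboxylase, by 0.09 (adjusted p = 0.791), with overlapping groups.

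Between squalene and cholesterol 5 of 7 enzymes rose. Msmo1, which removes methyl groups from lanosterol products, was at 9.52, 9.55 and 9.88 on the EGFNWR arrays and at 10.69, 10.35 and 10.58 on the ER arrays. The groups were apart and the difference was 0.89 (SE 0.14, adjusted p = 0.00607). Sc5d, a sterol desaturase near the end of the route, was at 9.17, 9.23 and 9.49 in EGFNWR medium and at 10.46, 10.04 and 9.95 in ER medium, a difference of 0.85 (SE 0.16, adjusted p = 0.00999). ER replicate a was highest, and the groups did not overlap. Sqle, squalene epoxidase, rose by 0.66 (adjusted p = 0.0378). Nsdhl and Ebp, a dehydrogenase and an isomerase of the later steps, rose by 0.51 (adjusted p = 0.0217) and 0.49 (adjusted p = 0.0246). Lss, lanosterol synthase, differed by 0.38 (adjusted p = 0.144). Dhcr7, the reductase that ends the route, was within 7.95 to 8.38 on all 6 arrays and differed by 0.09 (adjusted p = 0.688).

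Among the 6 genes of sterol sensing and transfer, the 2 Insig genes rose. Insig1 was at 9.65, 9.89 and 10.77 in EGFNWR medium and at 11.12, 11.06 and 11.54 in ER medium. EGFNWR replicate c was nearest to the ER arrays, and the difference was 1.14 (SE 0.28, adjusted p = 0.0301). Insig2 was at 8.87, 8.95 and 9.13 in EGFNWR medium and at 10.23, 9.92 and 10.05 in ER medium, a difference of 1.08 (SE 0.12, adjusted p = 0.00446). Its arrays were closer together within each medium than those of Insig1. The genes for the transcription factors and their escort differed less: Srebf1 by 0.16 (adjusted p = 0.452), Srebf2 by 0.18 (adjusted p = 0.217) and Scap by 0.00. Stard4, a cholesterol carrier, differed by 0.45 (adjusted p = 0.0525), with all ER arrays above all EGFNWR arrays.

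Of the 4 genes of fatty acid synthesis none rose and 1 fell. Acaca, acetyl-CoA carboxylase, was at 7.81, 7.95 and 7.87 in EGFNWR medium and at 7.33, 7.37 and 7.34 in ER medium. Both groups were tight and apart, and Acaca fell by 0.53 (SE 0.08, adjusted p = 0.00646). Acly, which makes acetyl-CoA from citrate, was at 9.18, 9.24 and 9.30 against 9.51, 9.49 and 9.52, a difference of 0.27 that missed the threshold (SE 0.08, adjusted p = 0.0605). Fasn, the fatty acid synthase, differed by 0.12 (adjusted p = 0.52), and Me1, malic enzyme, a source of NADPH, by 0.27 (adjusted p = 0.103).

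In the elongation and desaturation group 3 of 8 genes rose and 1 fell. The elongases Elovl6, Elovl1 and Elovl7 rose by 0.53 (adjusted p = 0.0492), 0.48 (adjusted p = 0.0214) and 0.46 (adjusted p = 0.0213), while Elovl5 differed by 0.09 (adjusted p = 0.742). Fads2, a desaturase of polyunsaturated fatty acids, was at 10.55, 10.49 and 10.51 in EGFNWR medium and at 9.89, 10.03 and 9.68 in ER medium. It fell by 0.65 (SE 0.11, adjusted p = 0.00768). Fads1, a desaturase of the same route and the gene next to Fads2 on chromosome 19, was at 8.81, 9.03 and 9.36 in EGFNWR medium and at 8.42, 8.90 and 7.86 in ER medium. The groups overlapped through ER replicate b, and the difference of -0.67 was as large as that of Fads2 with a wider error (SE 0.26, adjusted p = 0.122). Scd1 and Scd2, which make monounsaturated fatty acids, differed by -0.17 (adjusted p = 0.55) and -0.01 (adjusted p = 0.972).

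Of the 6 genes of glyceride assembly 3 rose and 1 fell. Dgat2, an enzyme of the last step to triglyceride, was at 8.03, 8.66 and 9.11 in EGFNWR medium and at 10.57, 10.42 and 10.40 in ER medium. Its difference of 1.86 (SE 0.25, adjusted p = 0.00467) was the largest of the 38 genes. Agpat2, which makes phosphatidic acid, was at 9.58, 9.59 and 9.94 against 10.88, 10.50 and 10.91, a difference of 1.06 (SE 0.15, adjusted p = 0.00529). Dgat1, the other enzyme of the last step, rose by 0.65 (SE 0.12, adjusted p = 0.00985). Gpam, the mitochondrial acyltransferase of the first step, fell by 0.34 (SE 0.09, adjusted p = 0.0413). This call was lost in 12 of 15 alternative settings, and 1 of the 15, the organoid arrays alone, repeats the main fit. With the replicate block, which pairs the organoid letters, 19 genes rose and 2 fell, where 10.3% of all genes rose and 13.3% fell. Gpam was no longer called (adjusted p = 0.0592), and Fdps, Stard4 (adjusted p = 0.0457) and Mogat1 (adjusted p = 0.0339) were called higher as well. The monoacylglycerol acyltransferases Mogat2 and Mogat1 differed by 0.67 (adjusted p = 0.0502) and 0.86 (adjusted p = 0.0968), the latter at levels below the array median on all 6 arrays.

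**Figure D2:**
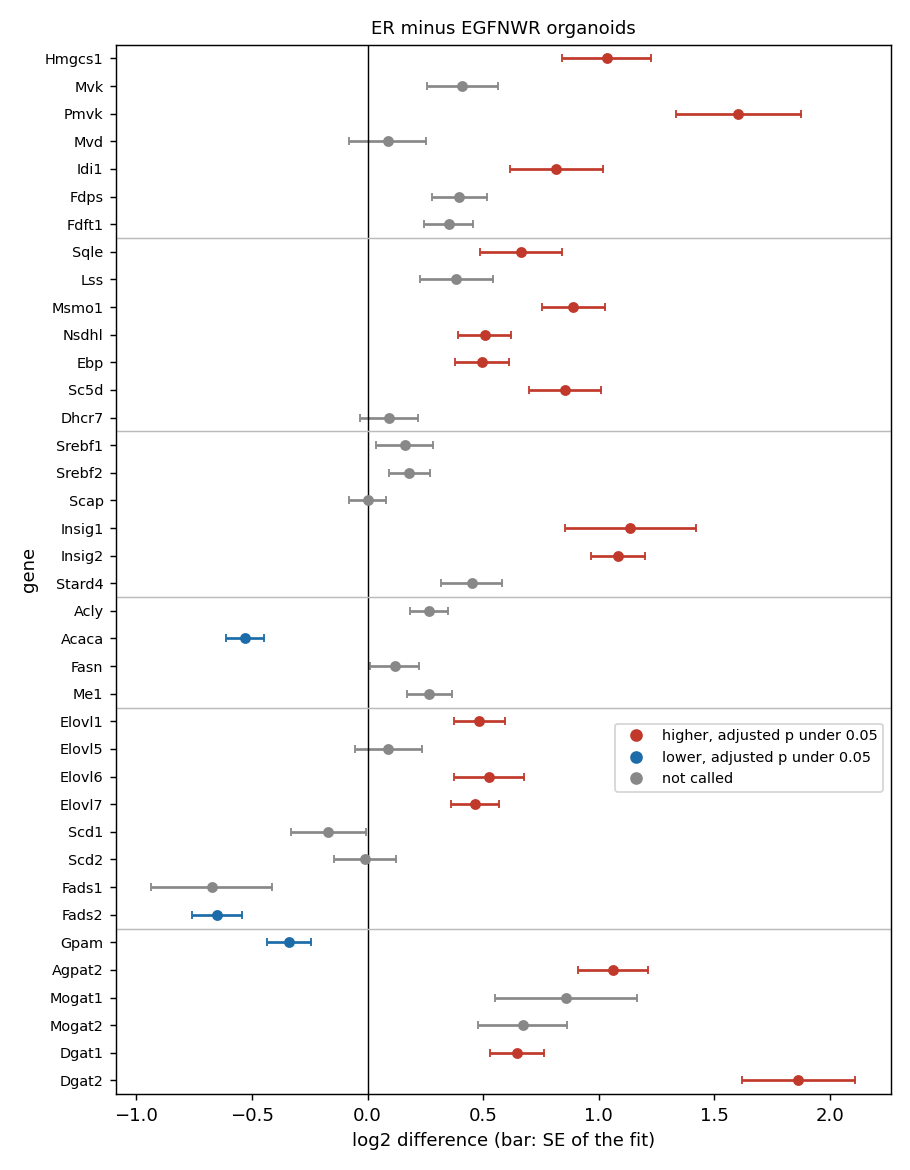
Difference in log2 level between ER and EGFNWR organoids (x axis) for each of the 38 genes (y axis, grouped by role, grey lines between groups). Points are estimates of the limma fit over 3 arrays per medium, bars are 1 SE, and colour gives the call. The 16 genes in red lie to the right of zero, with Dgat2 at 1.86 and Pmvk at 1.60 farthest, and Acaca, Fads2 and Gpam lie to the left in blue.

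The number of increases depended on single arrays. It was 8 without EGFNWR replicate a, without EGFNWR replicate b or without ER replicate a, where 4.63%, 5.37% and 4.88% of all genes rose, and it was 19 without EGFNWR replicate c, where 7.86% rose. In each of the 3 fits that gave 8, the genes were Pmvk, Hmgcs1, Msmo1, Sc5d, Insig2, Dgat1, Dgat2 and Agpat2, and Acaca and Fads2 fell. EGFNWR replicate c was the highest of the EGFNWR arrays in 15 of the 16 genes that rose, and in 58.6% of all 1719 genes that rose. It was also highest in 31 of the 38 genes (81.6%), called or not, against 33.9% of all genes tested. These counts were made after the levels were seen.

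Markers of cell types moved with the medium as well. All 5 pit cell markers rose in ER medium, with a mean level of 8.15 to 10.75 on the EGFNWR arrays (EGFNWR replicate c highest) and 11.65 to 12.55 on the ER arrays. Of the chief markers 3 of 5 fell, from means of 9.02 to 9.21 to means of 6.38 to 8.10, and 3 of 4 neck markers fell while Tff2 rose. All 4 proliferation genes fell, from means of 9.29 to 9.60 to means of 7.19 to 8.31. The part of these markers in the lipid gene differences was not tested.

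Another 42 measured genes of the same pathways, outside the set, were examined beside it: 12 rose and 4 fell in ER medium. Of 5 further sterol synthesis genes 3 rose, among them Cyp51, lanosterol demethylase (0.96, adjusted p = 0.0167), and Tm7sf2, a sterol reductase (0.93, adjusted p = 0.0219). Lbr, the lamin B receptor, which has the same reductase activity, fell by 0.60 (adjusted p = 0.0138). Of 9 genes of sterol uptake, export and sensing none rose and 3 fell. These were Mylip, a ligase that degrades the LDL receptor (fell by 0.90, adjusted p = 0.0103), Mbtps1, a protease that releases SREBPs (fell by 0.56, adjusted p = 0.013), and Npc1, which exports cholesterol from lysosomes (fell by 0.39, adjusted p = 0.0355). Of 16 genes around fatty acid synthesis 5 rose, including Mid1ip1, a protein that binds acetyl-CoA carboxylase (1.17, adjusted p = 0.0104), and Acss2, which makes acetyl-CoA from acetate (0.94, adjusted p = 0.0119). Of 12 genes of glyceride assembly, storage and breakdown 4 rose, including Plin2, a coat protein of lipid droplets (1.03, adjusted p = 0.00801), which was at 9.41, 9.90 and 9.92 in EGFNWR medium and at 10.90, 10.90 and 10.51 in ER medium.

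**Figure D3:**
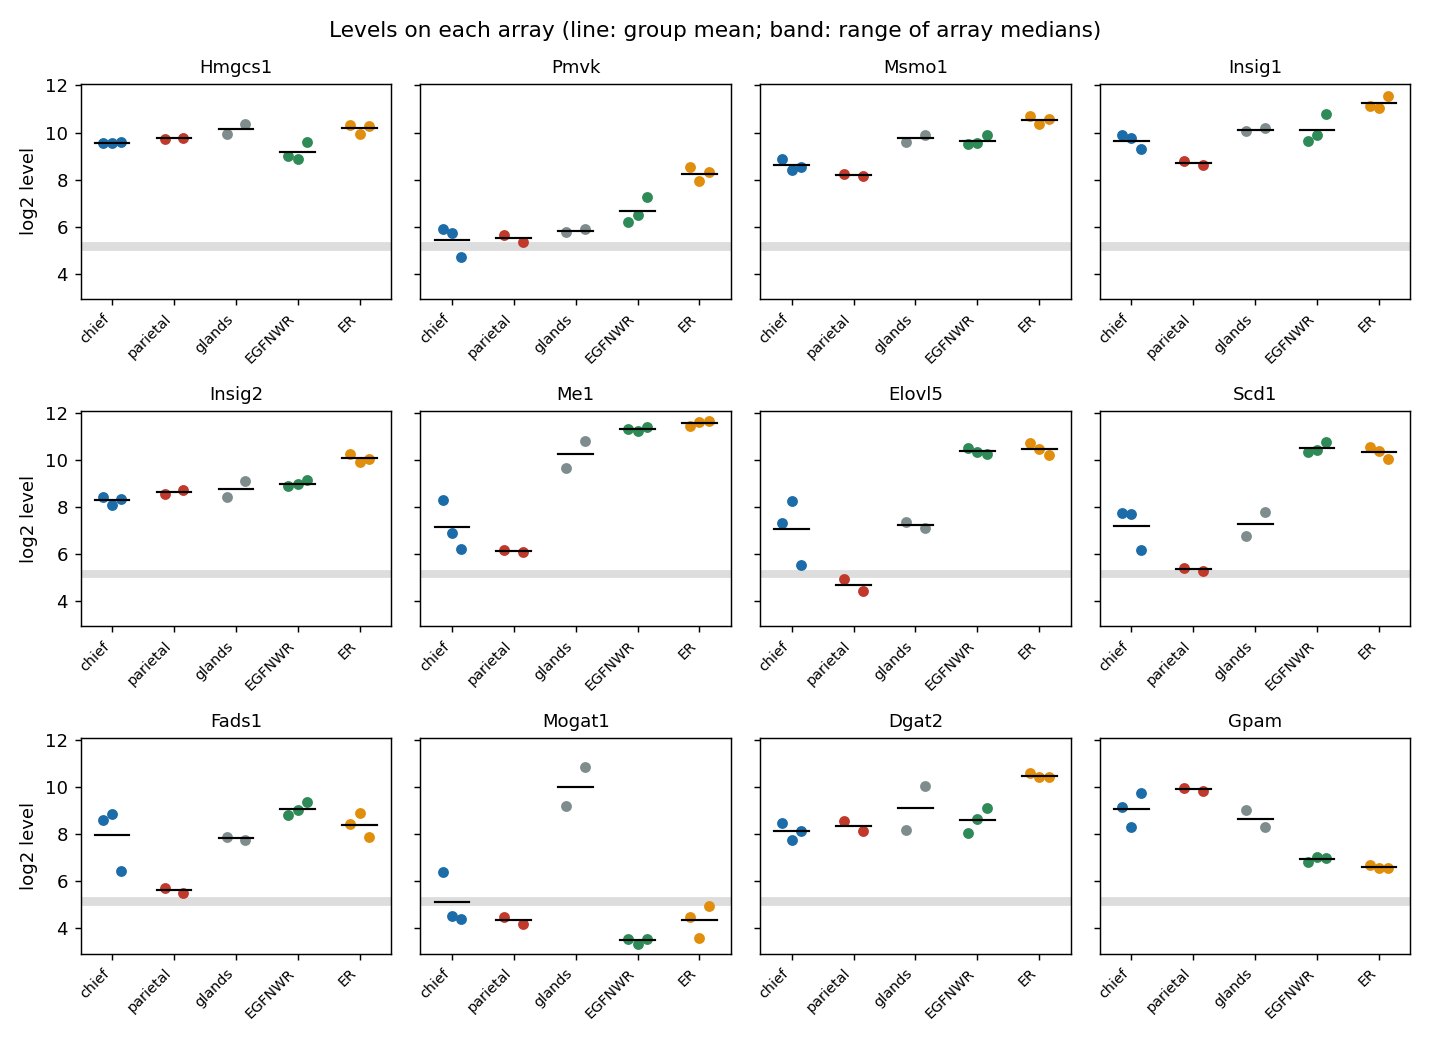
Log2 level (y axis) on each array (points) of 12 of the genes in the 5 groups (x axis); lines are group means and the grey band is the range of the array medians. Pmvk, Insig2 and Dgat2 are highest in ER organoids, Me1, Elovl5 and Scd1 are high in both organoid groups, and Mogat1 is high on the 2 gland arrays.

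Sorted cells were compared with whole glands to ask how the Troy-positive populations differ from the gland as a whole. The comparisons of chief and of parietal cells with glands share the 2 gland arrays, so a gland array moves both at once. Sorted cells were also trypsinized and sorted while glands were processed directly, and this handling cannot be told apart from cell type. In parietal cells 6 of the 38 genes fell and 0 rose, where 1.39% of all genes fell and 0.228% rose. The median difference was -0.90 for the 38 and 0.14 for all genes, and 34 of the 38 were negative. At an unadjusted p under 0.05, 24 were lower and 2 higher, against 11.0% and 9.85% of all genes.

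Among the 14 sterol enzymes, Idi1, Msmo1 and Sqle fell in parietal cells, and 13 of the 14 differences were negative. Idi1 was at 6.89 and 7.07 on the parietal arrays and at 9.22 and 9.55 on the gland arrays, a difference of -2.40 (SE 0.39, adjusted p = 0.0365). Msmo1 was at 8.23 and 8.17 against 9.60 and 9.91, a difference of -1.55 (SE 0.23, adjusted p = 0.0335). Sqle was at 7.90 and 7.86 against 9.13 and 9.62, a difference of -1.50 (SE 0.24, adjusted p = 0.0365). In each, the parietal arrays agreed closely and lay more than 1 log2 unit below the gland arrays. Insig1 fell as well, from 10.07 and 10.19 on the gland arrays to 8.79 and 8.61 on the parietal arrays (-1.43, SE 0.25, adjusted p = 0.0401). These 4 genes are also among those that rose in ER medium. Dhcr7 was the exception among the enzymes, with a difference of 0.25 (adjusted p = 0.626).

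Me1 and Mogat1 had the widest gaps to the glands. Me1 was at 6.17 and 6.08 on the parietal arrays and at 9.67 and 10.79 on the gland arrays, a difference of -4.11 (SE 0.63, adjusted p = 0.0348), and its other probeset gave -4.21. Mogat1 was at 4.47 and 4.20 against 9.19 and 10.83, a difference of -5.67 (SE 0.72, adjusted p = 0.0256). Both parietal levels of Mogat1 lie below the array medians, so the size of its difference is uncertain. Elongases and desaturases were lower without passing: Elovl5, with both parietal levels below the array medians, differed by -2.54 (adjusted p = 0.12), Fads1 by -2.20 (adjusted p = 0.14), Scd1 by -1.92 (adjusted p = 0.116) and Scd2 by -1.48 (adjusted p = 0.0687). Gpam (1.25, adjusted p = 0.175), Elovl1 (0.79, adjusted p = 0.306) and Acly (0.65, adjusted p = 0.132) were positive. Outside the set, Agpat4, an acyltransferase (-3.90), Fads3, a relative of the desaturases (-3.56), Lbr (-2.73), Cyp51 (-2.15) and Hsd17b7, a reductase of sterol demethylation (-1.70), fell, and Abca1, a cholesterol exporter, rose by 1.76. Agpat4 too lay below the array median on both parietal arrays, which leaves the size of its difference uncertain.

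All 6 calls in parietal cells were lost when every probeset was tested, where 0.133% of all genes were lower. Each difference rests on 2 parietal and 2 gland arrays. Leaving out any of these leaves 1 array in its group, so the calls of those fits are not given. Over all settings none of the 6 changed direction. A fit on the parietal and gland arrays alone called 22 genes lower and 2 higher, where 8.02% of all genes were lower and 6.40% higher. A fit on all 13 arrays called 21 lower and 2 higher, where the shares of all genes were 8.51% and 5.88%. Cell type markers differed here too: the pit list was at 12.68 to 12.94 in glands and 10.88 to 11.10 in parietal cells, the proliferation list at 9.37 to 9.49 against 6.89 to 7.13, and the tuft list at 6.45 to 6.75 against 3.96 to 4.35. Their part in the lipid gene differences was not tested.

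Chief cells against glands gave 1 call among the 38 genes, where 0.351% of all genes fell and 0.128% rose. Mogat1 was at 6.38, 4.54 and 4.41 on the chief arrays, with replicate a apart from the other two, against 9.19 and 10.83 in glands. The difference was -4.90 (SE 0.66, adjusted p = 0.0317). The call was lost without chief replicate b and in a fit on the chief and gland arrays alone, where 0.106% and 0.0956% of all genes were lower. It was also lost without gland replicate b, a fit that leaves 1 gland array. Me1, at 8.29, 6.88 and 6.22 against 9.67 and 10.79, differed by -3.10 (SE 0.58, adjusted p = 0.075). Sqle, at 8.29, 7.90 and 7.92 against 9.13 and 9.62, differed by -1.34 (SE 0.22, adjusted p = 0.0558). Acly, at 9.39, 9.35 and 9.28 against 9.17 and 8.89, was the gene with every chief array above the glands, by 0.31 (SE 0.18, adjusted p = 0.446).

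The median difference of the 38 genes in chief cells was -0.53, against 0.05 over all genes, and 32 were negative. Among the 14 sterol enzymes 13 were negative and 10 were lower at an unadjusted p under 0.05, where 8.69% of all genes were, but 0 passed after adjustment. Without chief replicate a, 6 genes were called lower, with 1.15% of all genes: Mogat1, Me1, Idi1, Lss, Msmo1 and Sqle. Chief replicate a was the chief array with the highest pit list, at 12.41 against 10.33 and 10.79 in the others. Without gland replicate a 2 were called, with 1.04% of all genes. Other markers moved in the same comparison. All 4 tuft markers fell, from list means of 6.45 to 6.75 in glands to 4.06 to 4.25 in chief cells, and 2 of 5 enteroendocrine markers fell, from 9.97 to 10.13 to 8.44 to 9.73. The pit markers had a median difference of -2.08 with 0 of 5 called. The part of these markers was not tested. Elongases and desaturases differed from the glands in both directions, with a median of -0.04 over the 8 genes and none called. Elovl7, at 9.75, 9.56 and 9.91 against 10.32 and 10.52, was below the glands on every chief array (-0.68, SE 0.19, adjusted p = 0.183), while the groups overlapped for the other 7, from Elovl6 at -0.42 to Fads2 at 0.36. Elovl5 spread from 5.55 to 8.27 over the chief arrays. Of the 42 other pathway genes none was called; Tecr, the reductase that closes the elongation cycle, differed by -0.04 and Slc25a1, the mitochondrial citrate carrier, by -0.60.

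**Figure D4:**
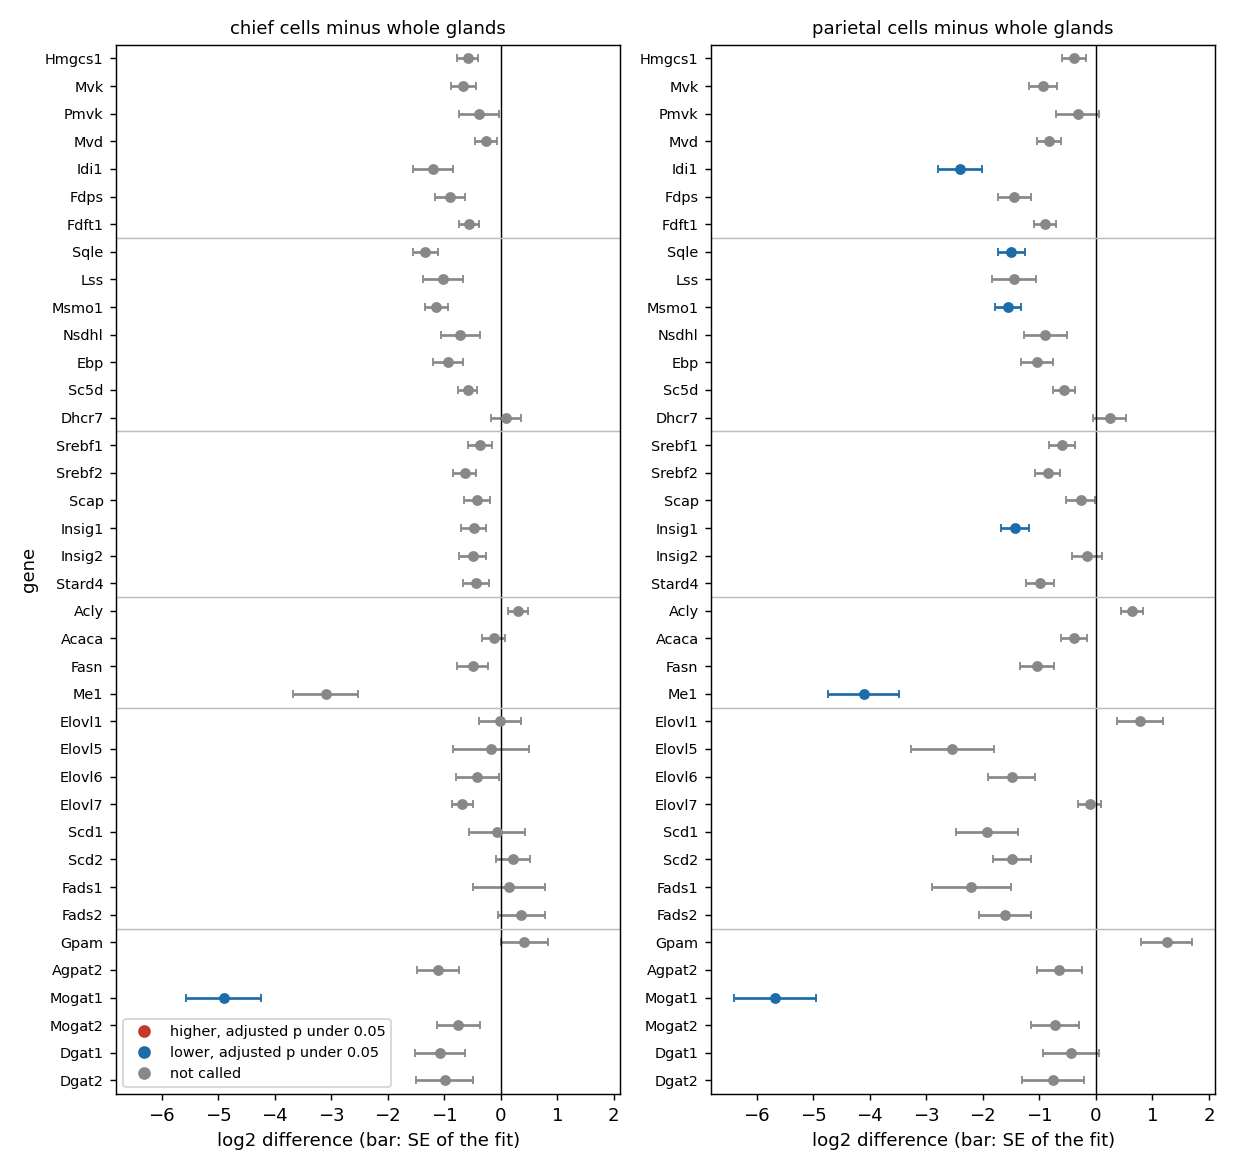
Difference in log2 level between chief cells (3 arrays, left) or parietal cells (2 arrays, right) and whole glands (the same 2 arrays in both panels) for the 38 genes, grouped by role. Points are limma estimates, bars are 1 SE and colour gives the call. Most points lie left of zero; Mogat1 is called in both panels and Me1, Idi1, Msmo1, Sqle and Insig1 in the parietal panel.

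Chief and parietal cells were compared directly. No gene of the whole array passed in either direction (0% higher and 0% lower), while 1103 genes were higher and 1178 lower at an unadjusted p under 0.05. Of the 38, 10 were higher in chief cells and 1, the elongase Elovl7, was lower at that level (-0.57, SE 0.19, adjusted p = 0.352). Of those 10, 6 are elongases and desaturases, a group whose median difference was 1.77 over 8 genes, against 0.24 over the 38 and -0.05 over all genes. None of these differences passed the adjusted test.

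Elovl5, which extends polyunsaturated fatty acids, was at 7.33, 8.27 and 5.55 in chief cells and at 4.93 and 4.44 in parietal cells. The difference was 2.37 (SE 0.67, adjusted p = 0.348), with chief replicate c nearest to the parietal arrays. Fads1 was at 8.60, 8.84 and 6.44 against 5.73 and 5.50, a difference of 2.35 (SE 0.64, adjusted p = 0.348). Fads2 was at 8.99, 9.42 and 7.95 against 6.86 and 6.77, a difference of 1.97 (SE 0.42, adjusted p = 0.348). In the set, 15 genes had every chief array above both parietal arrays and 7 had every one below, against 2047 and 3619 of all genes. Elovl5, Fads1 and Fads2 were picked among genes without overlap, so by that choice every chief array was above both parietal arrays. Scd1 and Scd2 had the same order, at 7.76, 7.69 and 6.18 against 5.41 and 5.30 for Scd1 and at 11.04, 11.04 and 10.13 against 9.10 and 8.99 for Scd2. Both parietal levels of Elovl5 lie below the array medians, so the size of its difference is uncertain. Without chief replicate c, 7 genes passed, where 4.84% of all genes were called higher and 2.17% lower: Elovl5 (3.12), Fads1 (3.10), Fads2 (2.39), Scd1 (2.37), Scd2 (1.99), Idi1 (1.46) and Insig1 (1.14). Neck and proliferation markers differed across the same arrays. The neck list was at 11.03, 11.73 and 10.52 in chief cells and at 9.79 and 9.61 in parietal cells, with 4 of 4 markers higher at an unadjusted p under 0.05. The proliferation list was at 8.92, 9.57 and 7.73 against 7.13 and 6.89, and Mki67, Top2a and Ccnb2 differed by 2.23, 2.38 and 2.08. Chief replicate c was the lowest chief array in both lists; their part in the lipid gene differences was not tested.

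In the other direction, Gpam was at 9.16, 8.29 and 9.74 in chief cells and at 9.97 and 9.83 in parietal cells, a difference of -0.84 (SE 0.41, adjusted p = 0.448). Elovl1, an elongase of saturated fatty acids, was at 10.59, 9.67 and 11.09 against 11.25 and 11.26 (-0.80, SE 0.37, adjusted p = 0.428). Dgat1 was at 8.63, 7.26 and 8.34 against 8.73 and 8.69 (-0.63, SE 0.45, adjusted p = 0.597). In each of these chief replicate b was lowest, the array with the squamous markers and with the lowest parietal list of the chief arrays (9.65 against 10.65 and 11.25). Of the other pathway genes none was called; Tecr differed by 0.14 and Pnpla2, a triglyceride lipase, by -0.49.

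Organoids in EGFNWR medium were set against sorted chief cells, the cell type they were grown from. These groups belong to different experiments, so experiment and group cannot be told apart. In that fit 23 of the 38 genes were higher in organoids and 3 lower, where 24.1% of all genes were higher and 16.2% lower. The median difference was 0.85 for the 38 and -0.07 for all genes, and centring the arrays on their medians moved the latter to 0.07. The EGFNWR arrays also serve in the comparison with ER medium, and the chief arrays in those with glands and parietal cells.

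Of the 14 sterol enzymes 12 were higher. Lss was at 8.50, 7.57 and 7.22 in chief cells and at 9.32, 9.25 and 9.72 in organoids, a difference of 1.67 (SE 0.27, adjusted p = 0.00053). Mvd was at 6.35, 6.00 and 6.09 against 7.44, 7.63 and 8.02, a difference of 1.55 (SE 0.17, adjusted p = 4.23e-05). Fdps was at 8.49, 7.79 and 8.02 against 9.59, 9.36 and 9.63, a difference of 1.43 (SE 0.20, adjusted p = 0.000173). In each, all organoid arrays were above all chief arrays. Nsdhl (1.32), Ebp (1.28), Pmvk (1.19), Mvk (1.12), Sqle (1.08), Idi1 (1.06), Msmo1 (1.04), Fdft1 (0.79) and Sc5d (0.53) were higher too. For Nsdhl the chief arrays were at 9.04, 7.77 and 8.39 and the organoids at 9.57, 9.67 and 9.91. Ebp was at 7.77, 7.25 and 7.67 in chief cells and at 8.74, 8.88 and 8.92 in organoids. Mvk was at 7.56, 6.93 and 7.22 against 8.17, 8.32 and 8.59, and Fdft1 at 10.50, 10.25 and 10.22 against 10.96, 11.12 and 11.25. Again no organoid array fell among the chief arrays. Pmvk, at 5.92, 5.76 and 4.71 in chief cells, included an array below the median. Sc5d was at 8.82, 8.72 and 8.76 in chief cells. Chief replicate a was the highest chief array for Idi1, at 8.93 against 7.95 and 7.68, and for Msmo1, at 8.88 against 8.42 and 8.54. Hmgcs1, at 9.57, 9.54 and 9.58 in chief cells, was not higher in organoids (-0.41, adjusted p = 0.0987), nor was Dhcr7 (-0.09, adjusted p = 0.721).

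Among the sensing genes Stard4 was higher by 1.40 (6.73, 6.95 and 6.49 in chief cells, 7.97, 7.99 and 8.41 in organoids). Insig2 was higher by 0.71, Srebf2 by 0.69 and Srebf1 by 0.52. Srebf2 was at 9.53, 9.36 and 9.21 against 10.00, 10.08 and 10.08, and Srebf1 at 8.01, 7.82 and 7.86 against 8.18, 8.44 and 8.63. For each, all organoid arrays were above all chief arrays. Insig1 differed by 0.45 (adjusted p = 0.189) and Scap by 0.10 (adjusted p = 0.619).

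The largest differences were in fatty acid genes. Me1 was at 8.29, 6.88 and 6.22 in chief cells and at 11.29, 11.21 and 11.39 in organoids, a difference of 4.17 (SE 0.42, adjusted p = 2.19e-05). Elovl5 was at 10.50, 10.33 and 10.23 in organoids, 3.30 above the chief arrays (SE 0.49, adjusted p = 0.000315). Scd1 was at 10.32, 10.42 and 10.74, 3.28 above them (SE 0.38, adjusted p = 5.32e-05). For all of these the organoid arrays agreed closely while the chief arrays spread over more than 1 log2 unit. Fads2 was higher by 1.73, Scd2, at 11.75, 11.89 and 12.03 in organoids, by 1.15, and Elovl6, at 8.54, 8.17 and 7.47 in chief cells and 8.84, 8.75 and 9.32 in organoids, by 0.91. Elovl7, at 9.75, 9.56 and 9.91 in chief cells and 9.07, 9.25 and 9.38 in organoids, was lower by 0.51 (-0.51, adjusted p = 0.0107). Acly, Acaca and Fasn did not pass, at -0.10, 0.00 and -0.24.

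In glyceride assembly, Mogat2 was at 5.63, 5.44 and 4.65 in chief cells, close to the array medians, and at 7.73, 8.11 and 8.51 in organoids, a difference of 2.88 (SE 0.31, adjusted p = 3.33e-05). Gpam went the other way, at 6.82, 7.02 and 6.99 in organoids (-2.12, SE 0.29, adjusted p = 0.000187). Mogat1, at 3.56, 3.35 and 3.56 in organoids, was below the array median there (-1.62, adjusted p = 0.0297). Without EGFNWR replicate a, Gpam was the 1 gene of the set called lower, where 10.8% of all genes were lower. Agpat2, Dgat1 and Dgat2 differed by 0.64 (adjusted p = 0.0824), 0.49 (adjusted p = 0.241) and 0.49 (adjusted p = 0.347). Of the 42 other pathway genes 15 were higher, led by Plin2 (2.94), Fads3 (2.04), Hsd17b7 (1.77), Agpat4 (1.67) and Tm7sf2 (1.56). The 3 lower ones were Acacb, the mitochondrial acetyl-CoA carboxylase (-2.87), Mlxipl, a carbohydrate-responsive transcription factor (-0.98), and Abca1 (-0.80). Mlxipl lay below the array median on all 3 EGFNWR arrays and Abca1 on 1, so the sizes of these differences are uncertain. The parietal list moved here as well, from 9.65 to 11.25 in chief cells to 4.77 to 5.20 in organoids, and the pit list from 10.33 to 12.41 to 8.15 to 10.75; their part in the differences was not tested.

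Across the 5 comparisons, Dhcr7, Scap, Acly, Fasn and Fads1 were called in none. Pmvk, Idi1, Sqle, Msmo1, Nsdhl, Ebp, Sc5d, Insig2 and Elovl6 were higher in EGFNWR organoids than in chief cells and higher again in ER medium. These 2 comparisons share the EGFNWR arrays.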

How the data were processed

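RNA of 13 mouse samples was measured on 1 array each. The authors deposited log2 values for 35556 probesets, made with RMA and Affymetrix Power Tools per the submitters' processing notes; their versions and the background step were not given. RMA brings the arrays' distributions closer together, so it can hide a shift common to most genes. The medians of the deposited arrays still lay between 5.01 and 5.30. Probesets were named by the platform annotation: 21218 had 1 symbol, 1881 several and 12457 none; 21185 of the former matched RefSeq (GRCm38.p6). Of several single-symbol probesets of a gene, the brightest over the 13 arrays was used.

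limma 3.58.1 (R 4.3.3; lmFit, eBayes) was fitted to the 7 arrays of the first experiment, to the 6 organoid arrays, and, for organoids against chief cells, to all 13, with no block. P-values were adjusted over 18820 genes by Benjamini-Hochberg, and 0.05 was the threshold. These p-values reflect spread among arrays, which may be technical in part; whether organoid cultures came from separate animals is not given in the labels. Detection was not called, and precision is limited by how many arrays there are. The fits were tested on simulated data.

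Organoid arrays of the same letter deviated together from their group means (correlations of 0.136, 0.169 and 0.333). The replicate block fit therefore takes the letters to pair them, while the main fit does not use the letters. No label gives such a pairing, and ER replicate a correlated at 0.171 with EGFNWR replicate b, more than with its own letter. Members and lists were chosen with earlier results of these data known. Named were all members called in a comparison; where fewer than 6 were called, also up to 3 per direction with the largest differences among groups without overlap; and up to 5 called other pathway genes per direction, or the 2 brightest. Alternatives were repeated quantile normalization, centring on the median, leaving out dim genes, eBayes with trend and robust, the mean of a gene's probesets, all probesets, the replicate block, other sets of arrays in the fit, and leaving out each replicate.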

Additional observations from a re-analysis of the deposited data

How the results depend on the processing

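Counts are of the 38 genes called by limma, and percentages are shares of all genes in that fit called in the same direction. The replicate block fit held only arrays of the 2 compared groups with a letter found in both. Against parietal cells or glands, the chief group there lacked replicate c. In ER against EGFNWR organoids, the count of genes higher (16) was 8 with all 13 arrays in 1 fit (3.60%). It was 8 to 19 when 1 array was left out (4.63% to 8.66%). The count lower (3) was 1 with all 13 arrays (5.46%) and 2 to 3 with 1 array left out (5.46% to 10.0%). With the replicate block, which is taken to pair the organoid arrays, 19 were higher (10.3%) and 2 lower (13.3%). In parietal cells against glands, the count lower (6) was 0 with all probesets tested (0.133%) and 17 with the replicate block (5.78%). It was 21 with all 13 arrays (8.51%) and 22 with the arrays of these groups alone (8.02%). Leaving out an array of either group leaves 1 array in it, so no count is given for that. The count higher (0) was 1 with the block (3.72%), 2 with all 13 arrays (5.88%) and 2 with these groups alone (6.40%). In chief cells against glands, the count lower (1) was 0 with all probesets (0.117%) and 0 with the replicate block (0%). It was 10 with all 13 arrays (4.33%) and 0 with these groups alone (0.0956%). With 1 chief array left out it was 0 to 6 (0.106% to 1.15%). In chief against parietal cells, the count higher (0) was 7 with the replicate block (4.77%), a fit that also lacks chief replicate c. It was 7 without chief replicate c and no block (4.84%), 0 without chief replicate a or b (0%) and 2 with all 13 arrays (0.505%). In organoids against chief cells, the count higher (23) was 18 to 24 in every setting (17.3% to 39.1%), and 18 with the replicate block (17.3%). The count lower (3) was 1 to 4 with 1 array left out (10.5% to 23.9%). Outside the organoids the letters were not taken to pair arrays. Same-letter correlations were 0.226 and 0.106 for chief and parietal arrays, both positive as in the organoids, so whether those letters pair is not settled. They were -0.340 and -0.113 for chief and gland arrays and -0.032 for parietal and gland arrays. For organoid and chief arrays they were -0.083, -0.142 and 0.125.

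Of the 28 genes named in ER against EGFNWR organoids, 10 were called in every one of 15 settings: Acaca, Agpat2, Dgat2, Hmgcs1, Insig2, Msmo1, Pmvk, Sc5d, Mid1ip1 and Plin2. Of the 15, the setting with the arrays of these groups alone repeats the main fit and had to give the same calls. No named gene changed direction in ER against EGFNWR organoids. Tecr in chief cells against glands did: its difference of -0.04 became 0.04 with repeated quantile normalization and lay between -0.10 and 0.04 over all settings; it was 0.00 without chief replicate b and 0.02 without gland replicate a. The causes of these changes were not tested. Signal over background limits Mogat1, whose level lay below the array median on 10 of 13 arrays.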
